A study of Homo sapiens with 12 samples.

Results

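Docetaxel acts on microtubules, which are built from tubulin, and the genes described here are the 7 beta tubulin isotypes TUBB, TUBB2A, TUBB2B, TUBB3, TUBB4A, TUBB4B, and TUBB6 together with the microtubule regulators MAP4, MAPT, and STMN1. Members were taken as the rows of the count table whose gene symbol equals 1 of these names, which gave 10 of 60649 genes, and all 10 passed the filter on low counts. RNA sequencing was performed on 12 libraries of the established human uterine leiomyosarcoma (uLMS) cell lines SK-UT-1B, from a primary tumor, and SK-LMS-1, from a vulvar metastasis. Each library came from cells exposed for 72 h to DMSO vehicle, to the gamma secretase inhibitor MK-0752 alone, or to a combination of MK-0752 with the nucleoside analog gemcitabine and the taxane docetaxel. Each treatment was given at its IC30, the concentration that lowers viability by 30%, set separately for each line. For the combination this was the IC30 of the mixture, in which MK-0752, gemcitabine, and docetaxel were each below their single-agent IC30. MK-0752 alone was given at its single-agent IC30, which is higher than its concentration in the combination. For SK-UT-1B, DMSO was represented by libraries 4-1 and 4-2 and the combination by 3-1 and 3-3. For SK-LMS-1, DMSO was represented by 4 libraries, named set 2 (2-1 and 2-3) and set 4 (4-1 and 4-2) by the first number of the library name, MK-0752 by 2-2 and 2-3, and the combination by 4-1 and 4-2. No library was exposed to docetaxel alone, so an effect of docetaxel cannot be told apart from that of its partners. In SK-UT-1B the first number also differed between DMSO and the combination, so treatment and library set cannot be told apart there.

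Microtubules are hollow polymers of alpha and beta tubulin dimers that grow and shrink, and they form the mitotic spindle. Taxanes bind beta tubulin within the polymer and hold it in its stable state. The isotypes are encoded by separate genes with nearly the same core and differ mostly in their acidic tails, which face outward and bind motors and other microtubule proteins. MAP4 and tau, the product of MAPT, bind along microtubules and stabilize them, tau chiefly in neurons, while stathmin, the product of STMN1, sequesters tubulin dimers and favors shrinkage. Cells also adjust tubulin mRNA to the pool of free dimers, an autoregulation in which TTC5 recognizes the start of the nascent tubulin chain.

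The ends of the coding sequences are shown because they are where the isotypes differ most. They were read from GENCODE v44 transcripts on hg38, 5′ to 3′ on the coding strand and without the stop codon. Each line opens with 15 bases in lower case, which are nearly the same in all isotypes, and the capitals that follow mark the tail.
TUBB: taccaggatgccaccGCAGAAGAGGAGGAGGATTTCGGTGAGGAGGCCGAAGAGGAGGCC
TUBB4B: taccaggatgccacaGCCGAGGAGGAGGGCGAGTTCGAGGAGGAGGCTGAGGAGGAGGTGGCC
TUBB6: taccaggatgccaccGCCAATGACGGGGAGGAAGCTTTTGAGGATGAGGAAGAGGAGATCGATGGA
TUBB4A: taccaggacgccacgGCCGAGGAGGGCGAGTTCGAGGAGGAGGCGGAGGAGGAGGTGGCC
TUBB2A: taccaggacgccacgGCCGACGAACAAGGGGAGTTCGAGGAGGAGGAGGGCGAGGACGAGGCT
TUBB2B: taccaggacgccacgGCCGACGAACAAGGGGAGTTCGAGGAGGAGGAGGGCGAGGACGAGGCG
TUBB3: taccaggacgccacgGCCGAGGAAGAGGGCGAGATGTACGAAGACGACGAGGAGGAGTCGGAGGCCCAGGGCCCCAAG
These stretches lie at chr6:30724335-30724394 (+) for TUBB, chr9:137243491-137243553 (+) for TUBB4B, and chr18:12326062-12326127 (+) for TUBB6. They lie at chr19:6495167-6495226 (-) for TUBB4A, chr6:3153866-3153928 (-) for TUBB2A, chr6:3224754-3224816 (-) for TUBB2B, and chr16:89935724-89935801 (+) for TUBB3. The tail has 15 codons in TUBB and TUBB4A and 21 in TUBB3, and 9 to 11 of the codons in each tail encode aspartate or glutamate. TUBB6 and TUBB3 have the tails that extend furthest, while TUBB2A and TUBB2B share all but the last base of theirs. The other end of the coding sequence, which TTC5 reads in the nascent chain, starts with 12 bases that take 5 forms among the 7 isotypes, of which atgagggaaatc opens both TUBB and TUBB4B. TUBB3 and TUBB6 share another form. All 5 forms encode the same amino acids, so the start of the chain is alike in the 7 isotypes.

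Because the isotypes resemble each other, not every read can be placed on 1 of them. Windows of 75 bases, the read length, were therefore taken at every position of each canonical transcript and aligned to hg38 and to the GENCODE transcripts. TUBB2A and TUBB2B differ at 24 of 1335 coding bases and share an identical run of 725 bases, and only 27.2% and 23.6% of their coding windows aligned to 1 gene. One shared window, at chr6:3154192-3154266 (-) in TUBB2A and chr6:3225080-3225154 (-) in TUBB2B, reads the same in both.
TUBB2A and TUBB2B: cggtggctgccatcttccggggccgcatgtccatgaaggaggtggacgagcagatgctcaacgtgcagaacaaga
Their most different coding window has 10 differing bases, in capitals, and spans an intron, from chr6:3155674-3156056 (-) in TUBB2A and chr6:3226208-3226573 (-) in TUBB2B.
TUBB2A: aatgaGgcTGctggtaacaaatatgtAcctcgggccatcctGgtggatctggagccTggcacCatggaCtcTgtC
TUBB2B: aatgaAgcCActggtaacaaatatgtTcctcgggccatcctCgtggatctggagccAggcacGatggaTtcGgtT
Over the whole transcript, 40.5% of windows of TUBB2A and 47.9% of TUBB2B could be counted on 1 gene, against 89.5% for TUBB, which shares windows with the pseudogenes TUBBP1 and TUBBP2. The share was 94.4% for TUBB4B, 97.8% for TUBB4A, 97.7% for STMN1, and 100% for TUBB6, MAP4, and MAPT. TUBB3 stood apart, since 93.2% of its windows aligned to 1 place but 97.4% touched a readthrough gene of the same strand that joins MC1R and TUBB3, which left 2.6% that belong to 1 gene. That readthrough gene had 0 counts in all 12 libraries. Levels of TUBB2A, TUBB2B, and TUBB3 are therefore reported as uncertain. Exons of a gene on the other strand lie over 7 of the 10 members, and the strand setting of the counts is not given in the sources used here.

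**Figure D1:**
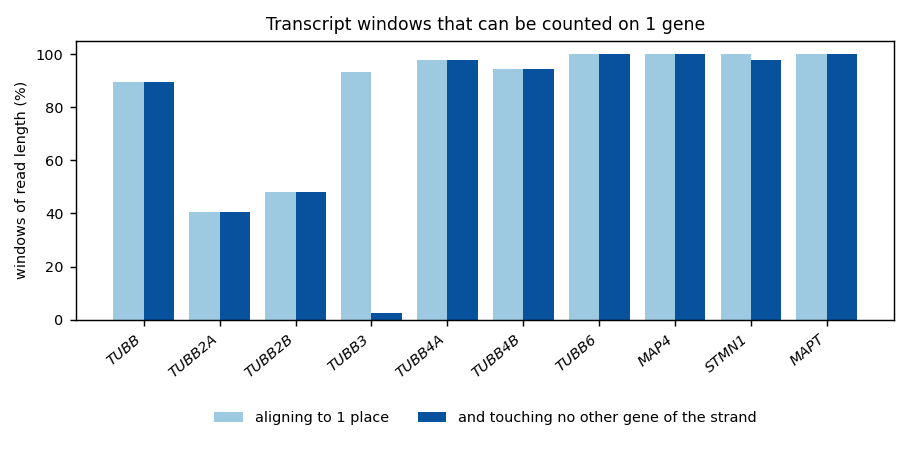
Percent of 75-base windows of each member's canonical transcript (vertical axis) that align to 1 place (light bars) and that also touch no other gene of the same strand (dark bars). TUBB2A and TUBB2B fall under 50 in both, and TUBB3 falls from 93.2 to 2.6.

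Total counts per library lay between 25250057 and 40709885. Many genes were at 0 in single libraries, with 17.6% to 34.5% of genes expected at 5 to 500 counts at 0, where Poisson sampling gives 0.0234% to 0.0374%, so low counts carry more error than their size alone gives. The libraries 3-1 and 3-3 of the SK-UT-1B combination differed from each other by over 1.5-fold at 19.8% of 4668 genes that reached 50 CPM (counts scaled to a common library total), while the libraries of the other groups did so at 0.428% to 6.28%. Results for that group are given with both libraries, and those that the text turns on also without 3-1 and without 3-3. Where a library is left out, its group holds 1 library, and the spread is borrowed from the other groups on the assumption that the lone library varies like theirs, so those p-values show how far a call rests on single libraries and do not establish a difference for the group. The labels do not say whether libraries of a group came from separate cultures, so p-values measure only the spread between these libraries. Levels are given as CPM with TMM normalization, or as CPM per kilobase of exon where genes are compared with each other.

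TUBB, the beta tubulin of most dividing cells (chr6:30717435-30725538, +), was the most abundant member in both lines. After DMSO it measured 1978 and 1624 CPM in SK-UT-1B and 1655, 1770, 1451, and 1593 CPM in SK-LMS-1, so the lines overlapped. The difference in TUBB between the lines was a log2FC (log2 fold change, SK-LMS-1 over SK-UT-1B) of -0.16 ± 0.19 (SE) with an adjusted p of 0.56. After the combination, TUBB measured 847 CPM in 3-1 and 1571 CPM in 3-3 of SK-UT-1B and 1648 and 1725 CPM in SK-LMS-1. Library 3-1 was the lowest of all 12. In these bulk libraries, fewer cells that express a gene and less of its RNA per cell cannot be told apart. After MK-0752 the SK-LMS-1 libraries measured 1333 and 1570 CPM.

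TUBB4B, a widely expressed isotype also found in cilia (chr9:137241287-137243707, +), was second to TUBB among the isotypes. It measured 355 and 305 CPM in SK-UT-1B after DMSO and 326 and 309 CPM after the combination. In SK-LMS-1 it measured 292, 322, 351, and 347 CPM after DMSO, 332 and 367 CPM after the combination, and 219 and 259 CPM after MK-0752. The MK-0752 libraries were the lowest of all 12. The lines did not differ detectably in TUBB4B after DMSO (log2FC -0.01 ± 0.13, adjusted p = 1).

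TUBB6 (chr18:12307669-12344320, +), the isotype with the most divergent coding sequence relative to TUBB, was higher in SK-LMS-1. It measured 131 and 151 CPM in SK-UT-1B after DMSO against 264, 264, 309, and 289 CPM in SK-LMS-1, with no overlap. The log2FC was 0.99 ± 0.14 after DMSO (adjusted p = 5.46e-06), a 1.99-fold higher level. After the combination it measured 111 and 131 CPM in SK-UT-1B and 259.7 and 285 CPM in SK-LMS-1, a log2FC of 1.17 ± 0.15 (adjusted p = 3.89e-06). The MK-0752 libraries of SK-LMS-1 measured 195 and 193 CPM, lower than every other library of that line and higher than every library of SK-UT-1B.

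TUBB4A, an isotype known chiefly from brain (chr19:6494319-6502848, -), showed the largest difference between lines among the members called. It measured 80.3 and 51.3 CPM in SK-UT-1B after DMSO and 61.5 and 111 CPM after the combination. In SK-LMS-1 it measured 3.73, 8.33, 10.4, and 4.09 CPM after DMSO, 9.88 and 8.99 CPM after the combination, and 6.31 and 8.61 CPM after MK-0752. Every SK-UT-1B library was above every SK-LMS-1 library. The log2FC of TUBB4A in SK-LMS-1 over SK-UT-1B was -3.32 ± 0.40 after DMSO (adjusted p = 2.38e-05) and -3.19 ± 0.51 after the combination (adjusted p = 0.000354).

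TUBB2A (chr6:3153497-3157544, -), TUBB2B (chr6:3223324-3231730, -), and TUBB3 (chr16:89921392-89938761, +), isotypes known chiefly from neurons, were low in all libraries, within the limits on their counts given above. After DMSO, TUBB2A ranged from 1.68 to 9.41 CPM across the SK-LMS-1 libraries and measured 1.21 and 2.81 CPM in those of SK-UT-1B, and it lay over all libraries between 21 and 232 counts. TUBB2B ranged from 0.543 to 4.71 CPM and measured 1.52 and 4.48 CPM in the same groups, and had 3 counts in the SK-LMS-1 combination library 4-2. These 2 genes did not differ detectably between lines after DMSO (log2FC 1.11 ± 0.93 with an adjusted p of 0.362 for TUBB2A and -0.25 ± 1.06 with an adjusted p of 0.926 for TUBB2B). TUBB3, the isotype most often linked with taxane response, measured 3.22 and 7.27 CPM in SK-UT-1B DMSO and 4.04 and 8.73 CPM in its combination libraries. In SK-LMS-1, TUBB3 measured 4.04, 1.09, 1.58, and 0.492 CPM after DMSO, 1.38 and 1.31 CPM after the combination, and 0 and 1.55 CPM after MK-0752. The TUBB3 difference after DMSO had a log2FC of -1.69 ± 1.11 and an adjusted p of 0.237. Over 11 alternatives its log2FC lay between -2.35 and -0.98, the latter without the SK-UT-1B DMSO library 4-2 (adjusted p = 0.697), and 1 alternative, without the SK-LMS-1 DMSO library 4-1, called it (-2.25, adjusted p = 0.049). After the combination the lines did not overlap in TUBB3, with a log2FC of -2.24 ± 1.39 and an adjusted p of 0.249, or -2.72 without 3-1 (adjusted p = 0.116) and -1.58 without 3-3 (adjusted p = 0.546).

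**Figure D2:**
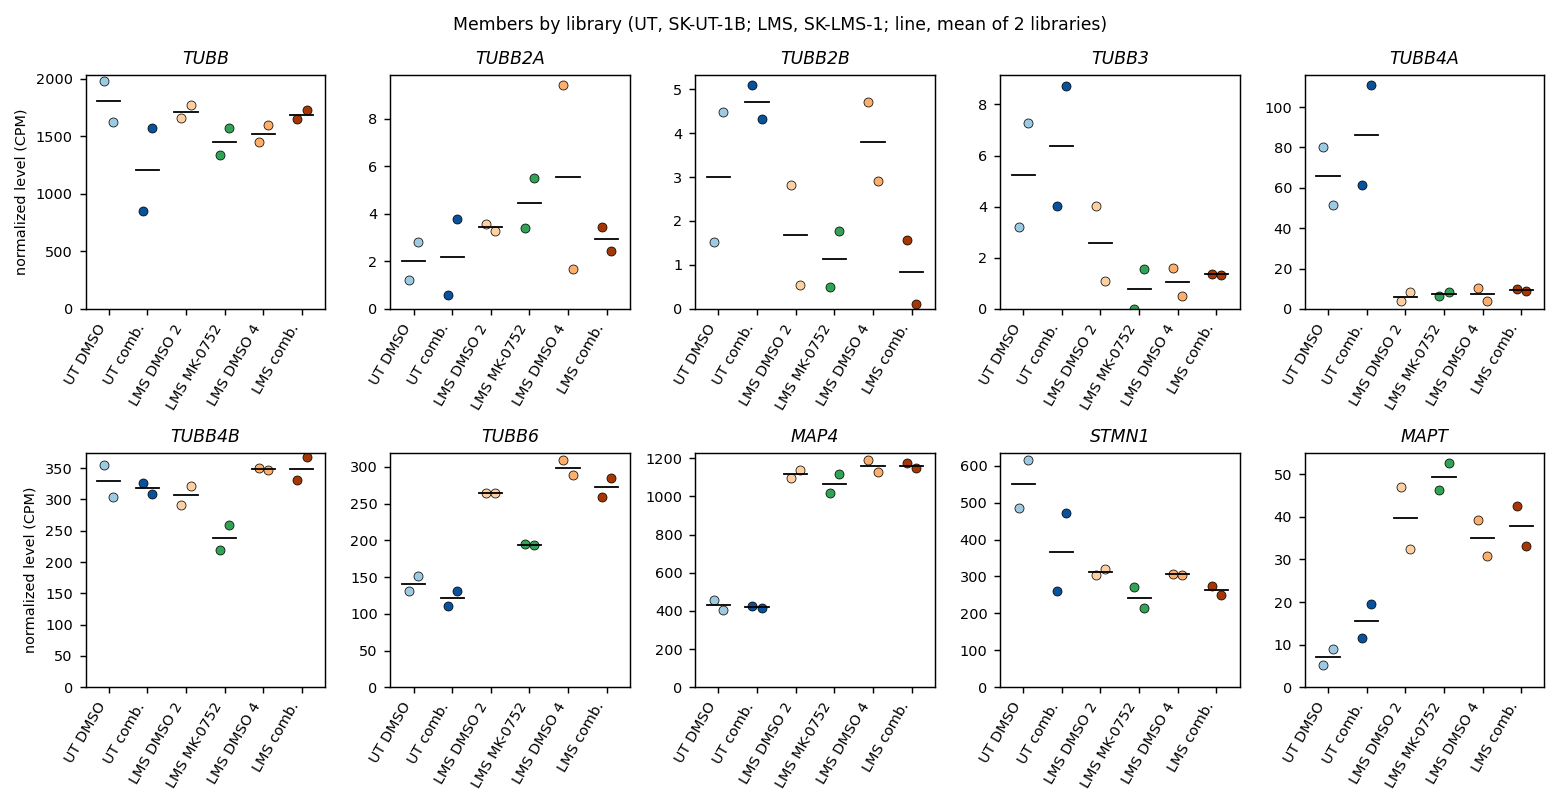
Normalized level (CPM, vertical axes starting at 0) of each member in the 12 libraries, grouped by line and treatment, with a bar at the mean of the 2 libraries of a group. TUBB4A separates the lines in one direction and TUBB6, MAP4, and MAPT in the other, while TUBB and STMN1 are lowest for SK-UT-1B in the combination library 3-1.

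The composition of beta tubulin mRNA was examined as the share of each isotype in the summed level per exonic kilobase of the 7 isotypes. TUBB held 67.5% and 65.9% in SK-UT-1B DMSO and 65.5%, 65.5%, 58.0%, and 61.4% in SK-LMS-1 DMSO. TUBB4B held 24.4% ± 0.326 (SD, n = 2) and 25.4% ± 2.34 (SD, n = 4) in the same order of lines. TUBB6 held 5.47% ± 1.22 (SD, n = 2) in SK-UT-1B and 11.3% ± 1.14 (SD, n = 4) in SK-LMS-1, and TUBB4A 3.05% ± 0.592 (SD, n = 2) and 0.325% ± 0.162 (SD, n = 4). TUBB, TUBB4B, TUBB6, and TUBB4A thus made up nearly all of the sum, and the lines did not overlap in the shares of TUBB6 and TUBB4A, nor, by a narrow margin of 65.9% against 65.5%, in that of TUBB. The difference in the TUBB share was -4.10 percentage points (SK-LMS-1 minus SK-UT-1B), -2.55 without the SK-LMS-1 DMSO library 4-1, and -1.03 by countable windows, a length chosen after the data were seen. The exact two-sided permutation test of 4 against 2 libraries gave a p of 0.133 for each of the shares of TUBB, TUBB6, and TUBB4A, and 0.311 after adjustment over the 7 isotypes. This test doubles the p of a single direction, and 0.133 is the smallest p it can give with 4 against 2 libraries. TUBB2A, TUBB2B, and TUBB3 each held under 0.6% in every library. Dividing TUBB3 by its few countable windows instead of its exonic length, a choice made after the data were seen, put its share between 0.991% and 7.73% in SK-LMS-1 DMSO and at 5.56% and 13.6% in SK-UT-1B DMSO, so the share of TUBB3 depends on the length assigned to it.

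**Figure D3:**
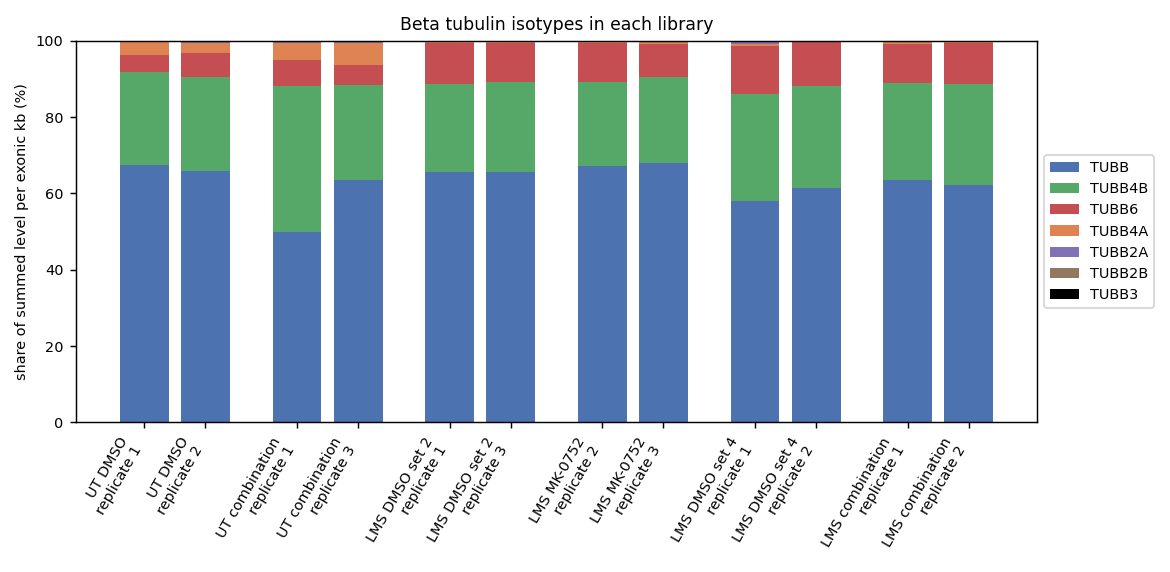
Share (percent, vertical axis) of each beta tubulin isotype in the summed level per exonic kilobase, one stacked bar for each library. TUBB is the largest part of every bar, the TUBB6 part is wider in SK-LMS-1, and the TUBB4A part is visible chiefly in SK-UT-1B.

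After treatment, the composition was examined in each library. TUBB held 49.8% and TUBB4B 38.4% in library 3-1 of the SK-UT-1B combination, against 63.4% and 24.9% in 3-3. The summed CPM of the 7 isotypes was 1355 in 3-1, 2139 in 3-3, and 2550 and 2146 in the DMSO libraries of that line. In SK-LMS-1 the sum was 1757 and 2039 CPM with MK-0752, 2225 and 2369 in DMSO set 2, 2138 and 2238 in DMSO set 4, and 2256 and 2390 in the combination libraries. The MK-0752 libraries were thus the lowest of the SK-LMS-1 libraries. The TUBB4A share was 4.58% in 3-1 and 5.65% in 3-3 of SK-UT-1B, both above the DMSO libraries of the line at 3.47% and 2.63%, and this difference was not tested. The shares in the MK-0752 libraries were 67.1% and 68.0% for TUBB and 10.1% and 8.65% for TUBB6.

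Among the regulators, MAP4, the main microtubule-stabilizing protein of non-neuronal cells (chr3:47850690-48089272, -), was higher in SK-LMS-1 with little spread. It measured 458 and 405 CPM in SK-UT-1B after DMSO and 426 and 418 CPM after the combination. In SK-LMS-1 it measured 1095, 1137, 1189, and 1130 CPM after DMSO, 1173 and 1148 CPM after the combination, and 1020 and 1115 CPM after MK-0752. No library of one line came near the other. The log2FC was 1.40 ± 0.12 after DMSO (adjusted p = 5.91e-09), a 2.64-fold higher level, and 1.46 ± 0.13 after the combination (adjusted p = 1.72e-08).

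MAPT (chr17:45894527-46028334, +), which encodes tau, was also higher in SK-LMS-1, at a much lower level than MAP4. It measured 5.33 and 8.91 CPM in SK-UT-1B after DMSO and 11.6 and 19.6 CPM after the combination. In SK-LMS-1 it measured 47.0, 32.6, 39.3, and 30.7 CPM after DMSO, 42.6 and 33.1 CPM after the combination, and 46.2 and 52.7 CPM after MK-0752. The lines did not overlap under either exposure. The log2FC of MAPT was 2.39 ± 0.31 after DMSO (adjusted p = 2.66e-06) and 1.28 ± 0.32 after the combination (adjusted p = 0.00346).

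STMN1 (chr1:25884181-25906991, -), the destabilizer, was the regulator that was lower in SK-LMS-1. After DMSO it measured 486 and 615 CPM in SK-UT-1B and 304, 321, 308, and 305 CPM in SK-LMS-1, with no overlap and a log2FC of -0.83 ± 0.19 (adjusted p = 0.00187). After the combination it measured 260.0 CPM in 3-1 and 472 CPM in 3-3 of SK-UT-1B, and 274 and 251 CPM in SK-LMS-1. The lines then overlapped, and the log2FC of -0.48 ± 0.22 did not pass the test (adjusted p = 0.118). The value depended on the library, with a log2FC of -0.87 without 3-1 (adjusted p = 1.62e-06) and of 0.01 without 3-3 (adjusted p = 1). After MK-0752, STMN1 measured 271 and 214 CPM in SK-LMS-1.

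Of the 10 members, 5 were called different between the lines after DMSO at an adjusted p under 0.05, where 41.0% of the 21114 genes tested were called, so the share of members was near that of all genes. MAP4, MAPT, and TUBB6 were higher in SK-LMS-1 (3 members, 21.5% of all genes) and TUBB4A and STMN1 were lower (2 members, 19.5% of all genes). An absolute log2FC of at least 1 was reached by 3 of them, TUBB4A, MAP4, and MAPT, and by 31.1% of all genes. After the combination, 4 members were called against 32.9% of all genes, with MAP4, MAPT, and TUBB6 higher (19.3% of all genes) and TUBB4A lower (13.6% of all genes), and all 4 reached an absolute log2FC of at least 1 (25.4% of all genes). The median absolute log2FC of the members was 1.05 after DMSO and 1.22 after the combination, against 1.45 and 1.24 over all genes. These 2 comparisons use different libraries of each line, and TUBB4A, TUBB6, MAP4, and MAPT were called in both. Without 3-1 and without 3-3, in that order, the log2FC after the combination was 1.03 and 1.30 for TUBB6, 1.45 and 1.44 for MAP4, 0.92 and 1.70 for MAPT, and -3.58 and -2.70 for TUBB4A. TUBB, at 0.48 ± 0.22 with both libraries (adjusted p = 0.13), had 0.08 without 3-1 and 0.99 without 3-3.

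**Figure D4:**
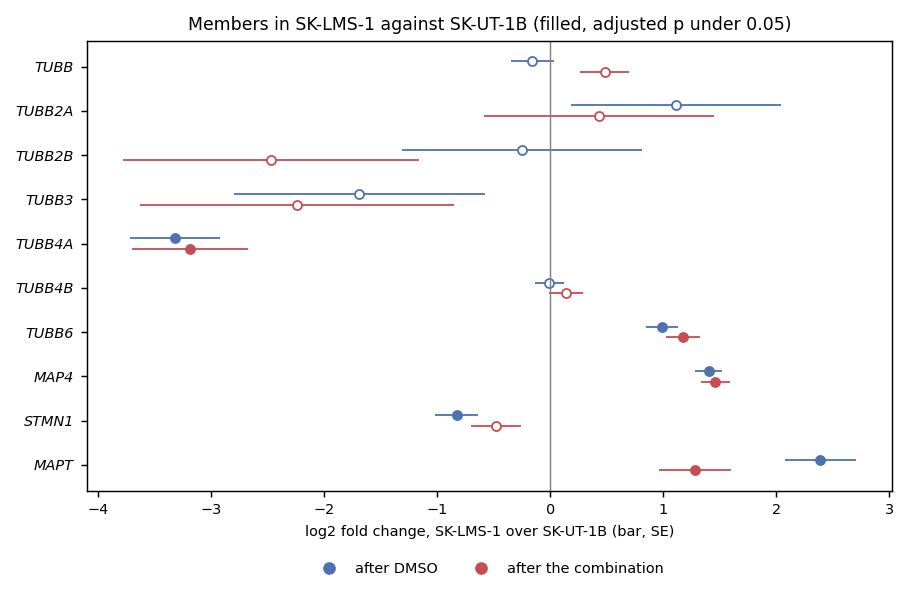
Log2 fold change of each member in SK-LMS-1 over SK-UT-1B (horizontal axis) after DMSO and after the combination, with the SE as a bar and filled points where the adjusted p is under 0.05. TUBB4A lies near -3 and MAP4 near 1.4 under both exposures, and the 3 isotypes with few countable windows have the widest bars.

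Per exonic kilobase, the order of the members in SK-LMS-1 DMSO was TUBB (397 ± 32.6 CPM per kilobase, SD, n = 4), TUBB4B (161 ± 13.4), MAP4 (75.9 ± 2.57), TUBB6 (71.5 ± 5.55), and STMN1 (49.5 ± 1.29). MAP4 and TUBB6 did not differ beyond their spread. TUBB4A (2.06 ± 1.01), MAPT (2.03 ± 0.402), and TUBB2A (1.54 ± 1.16) followed without a difference beyond their spread, then TUBB2B and TUBB3 under 1. In SK-UT-1B DMSO, TUBB (442 ± 61.4, SD, n = 2) and TUBB4B (162 ± 17.5) again led, followed by STMN1 (88.1 ± 14.6), TUBB6 (35.8 ± 3.71), MAP4 (28.8 ± 2.52), and TUBB4A (20.4 ± 6.37), with the remaining members under 1. Dividing by the length of the canonical transcript instead, an alternative chosen after the data were seen, put STMN1 at rank 2 in both lines, with 214 ± 5.58 CPM per kilobase in SK-LMS-1 beside 209.7 ± 17.5 for TUBB4B and with 381 ± 63.3 in SK-UT-1B beside 211 ± 22.8, since its exons of all transcripts together cover 6247 bases and its canonical transcript 1443. On that length TUBB6 (150 ± 11.6) lay above MAP4 (123 ± 4.17) in SK-LMS-1 by more than their spread, and MAPT (5.49 ± 1.09) above TUBB4A (2.91 ± 1.43), so the order within these pairs depends on the length used.

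No member passed the threshold in any treatment comparison with edgeR as set here, and DESeq2 also called 0 members in each. With no filter beyond 1 count, however, edgeR called TUBB, STMN1, and MAPT in the SK-UT-1B combination, where it called 758 genes in all against 151 as set here. It also called TUBB in the difference of the combination effect between the lines, among 318 genes in all against 49. In SK-UT-1B, 0 of 10 members were called after the combination, where edgeR called 0.715% of all genes, and 3 members had an unadjusted p under 0.05 beside 10.5% of all genes. These 3 were MAPT with a log2FC of 1.13 ± 0.32 (adjusted p = 0.133), STMN1 with -0.59 ± 0.22 (adjusted p = 0.307), and TUBB with -0.58 ± 0.22 (adjusted p = 0.355). The treated and DMSO libraries did not overlap in these 3 genes, but for TUBB and STMN1 the gap between 3-1 and 3-3 was larger than that between 3-3 and the nearer DMSO library. Without 3-1, the log2FC was -0.22 for TUBB (adjusted p = 0.99), -0.25 for STMN1 (adjusted p = 1), and 1.42 for MAPT (adjusted p = 0.00164). Without 3-3, it was -1.09 for TUBB (adjusted p = 9.57e-11), -1.08 for STMN1 (adjusted p = 4.51e-07), and 0.70 for MAPT (adjusted p = 0.261), so the calls for these genes rested on which combination library was kept. The DMSO libraries mattered as well, since without 4-1 STMN1 was called (-0.77, adjusted p = 0.0189), and without 4-2 TUBB (-0.71, adjusted p = 0.00399) and MAPT (1.55, adjusted p = 0.00494) were called. MAP4 and TUBB4B had log2FC values of -0.03 ± 0.13 and -0.05 ± 0.15, of -0.07 and -0.12 without 3-1, and of -0.02 and -0.01 without 3-3. TUBB2A (0.11 ± 1.02) and TUBB4A (0.39 ± 0.47) had 0.88 and 0.73 without 3-1 and -1.80 and -0.10 without 3-3.

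In SK-LMS-1, 0 of 10 members were called after MK-0752 against DMSO set 2 (0.365% of all genes), and 2 had an unadjusted p under 0.05 beside 6.41% of all genes. TUBB6 had a log2FC of -0.44 ± 0.15 (adjusted p = 0.41) and TUBB4B of -0.36 ± 0.15 (adjusted p = 0.616). Both were lower in each MK-0752 library than in each DMSO library of the line. STMN1 had -0.36 ± 0.22 (adjusted p = 0.806) and was likewise lower in each MK-0752 library than in each DMSO library of the line. TUBB had -0.24 ± 0.22 (adjusted p = 0.912) and MAP4 -0.06 ± 0.13 (adjusted p = 1). After the combination against DMSO set 4, 0 members were called by edgeR (0.0237% of all genes) and 0 had an unadjusted p under 0.05, beside 4.33% of all genes. For members above 100 CPM the log2FC lay between -0.22 ± 0.22 for STMN1 and 0.15 ± 0.22 for TUBB.

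**Figure D5:**
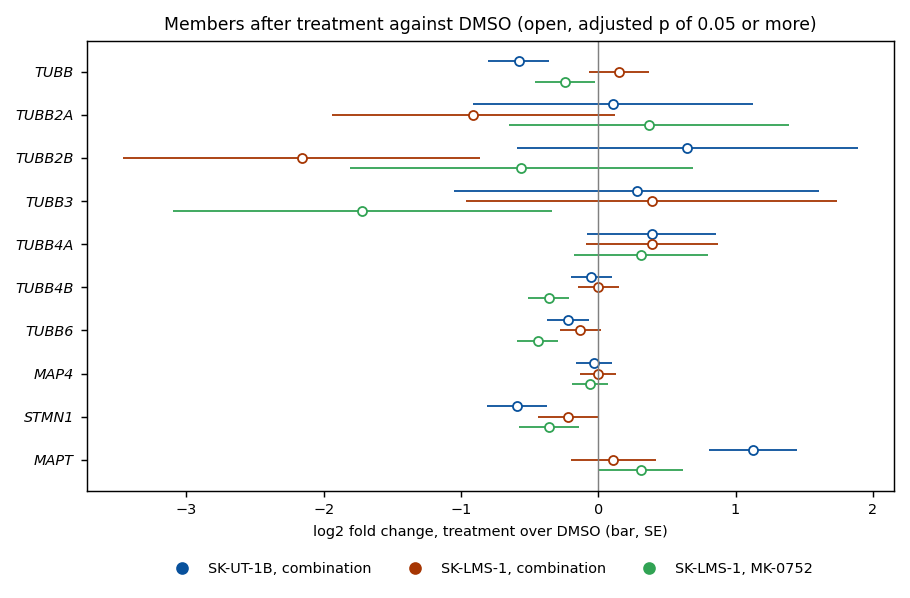
Log2 fold change of each member after treatment over DMSO (horizontal axis), with the SE as a bar, for the combination in both lines and MK-0752 in SK-LMS-1. All points are open because no adjusted p is under 0.05, and MAPT in SK-UT-1B lies furthest to the right at 1.13.

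The effect of the combination was compared between the lines, where 0 members were called by edgeR (0.232% of all genes). TUBB had a difference in log2FC, SK-UT-1B minus SK-LMS-1, of -0.72 ± 0.31 (adjusted p = 0.648) and MAPT of 1.01 ± 0.45 (adjusted p = 0.631), the 2 members with an unadjusted p under 0.05 beside 7.67% of all genes. Without library 3-3 the TUBB difference was -1.23 and without 3-1 it was -0.34, while that of MAPT was 0.59 without 3-3 and 1.35 without 3-1. The STMN1 difference was -0.36 ± 0.31 with both libraries (adjusted p = 0.89), -0.85 without 3-3, and 0.01 without 3-1. The effects of MK-0752 and of the combination in SK-LMS-1 differed for 0 members by edgeR (0.0379% of all genes). An unadjusted p under 0.05 was reached there by 0 members beside 5.18% of all genes. MK-0752 was given there at another concentration than in the combination. Set 4 and set 2 of DMSO differed for 0 members and 0 genes in all (0% by edgeR, with 36 genes called by DESeq2 and 1197 at an unadjusted p under 0.05).

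The counts of the lists that follow stand beside these shares over all genes for SK-LMS-1 over SK-UT-1B. After DMSO 21.5% were called higher and 19.5% lower (41.0% in all), and after the combination 19.3% and 13.6% (32.9% in all). The list counts after the combination also rested on single libraries, in fits chosen after the data were seen. Without 3-1, the list of tubulin folding and autoregulation had 3 higher and 7 lower, the destabilizers 1 and 6, the tubulin modifying enzymes 5 and 3, and the proliferation markers 0 and 17, where 28.2% of all genes were called. Without 3-3, they had 5 and 2, 1 and 3, 7 and 2, and 1 and 9, where 27.3% were called, and the alpha tubulins had 4 higher against 1 without 3-1. Of the other genes of the microtubule system, 6 of 9 alpha tubulins were tested, and after DMSO 1 was higher in SK-LMS-1 and 0 lower. That gene was TUBA4A, with 18.2 ± 3.18 CPM (SD, n = 4) in SK-LMS-1 and 0.156 ± 0.220 CPM (SD, n = 2) in SK-UT-1B. The SK-UT-1B DMSO libraries held 9 and 0 counts of it, so its log2FC of 6.95 ± 1.25 (adjusted p = 0.0014) gives no exact fold. The list's median log2FC was 0.23 beside 0 over all genes. After the combination 2 were higher, TUBA4A (6.33, from 0 and 13 counts in SK-UT-1B) and TUBA1C (0.77, adjusted p = 0.04999), and 0 lower. The list's median was then 3.55, in which 2 of the 6 genes had 0 counts in SK-UT-1B. Of the 5 other tubulins tested, TUBG2 (log2FC 1.68) was higher and TUBG1 (-1.37) and TUBD1 (-1.43) lower, of which the gamma tubulins nucleate microtubules. After the combination TUBG1 alone was called (-1.06), and the list's median was 0.18 against -1.37 after DMSO.

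The list of tubulin folding and autoregulation had 24 tested rows, because TBCE has 2, and SK-LMS-1 had 2 higher and 9 lower after DMSO, with a median log2FC of -0.34. After the combination 3 were higher and 3 lower, with a median of -0.25. The genes lower in SK-LMS-1 included CCT8 (-1.23), a subunit of the chaperonin that folds tubulin, and TBCD (-1.19) and TBCCD1 (-1.0), while ARL2 (1.42), a small GTPase that works with the tubulin cofactors, was higher. TTC5, the autoregulation factor, had a log2FC of 0.59 ± 0.29 (adjusted p = 0.111).

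Among 33 stabilizers and plus-end proteins, SK-LMS-1 had 10 higher and 13 lower after DMSO, with a median log2FC of -0.09. MAP2, a neuronal relative of tau, measured 5.51 ± 1.22 CPM (SD, n = 4) in SK-LMS-1 and had 0 counts in both SK-UT-1B DMSO libraries. MAP7 (log2FC 5.26) and DCLK2 (3.75) were higher, with at most 12 and 50 counts in the SK-UT-1B DMSO libraries. MTUS1 (-2.13), EML4 (-2.04), and CAMSAP2 (-1.48), which protects minus ends, were lower. EML4 measured 158 ± 11.0 CPM (SD, n = 4) in SK-LMS-1 against 649 ± 35.8 CPM (SD, n = 2) in SK-UT-1B. After the combination 10 were higher and 11 lower.

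Of 14 destabilizers and severing proteins tested beside STMN1, SK-LMS-1 had 1 higher and 8 lower after DMSO (median log2FC -0.54). The kinesins KIF18B (-2.53) and KIF24 (-1.43) and the stathmin relative STMN3 (-1.30) were lower, and the severing protein FIGN (2.68) was higher. After the combination 1 was higher and 6 lower. Of 22 tubulin modifying enzymes tested, 6 were higher and 5 lower after DMSO (median log2FC 0.16), among them the polyglutamylases TTLL7 (2.45), TTLL11 (2.02), and TTLL1 (1.16), which add glutamates to tubulin tails. Another polyglutamylase, TTLL4, was lower in SK-LMS-1, with a log2FC of -0.90 ± 0.28 after DMSO (adjusted p = 0.0158) and -1.40 ± 0.34 after the combination (adjusted p = 0.00347). After the combination 4 were higher and 1 lower. VASH2, an enzyme that removes the terminal tyrosine of alpha tubulin, measured 0.551 ± 0.699 CPM (SD, n = 4) in SK-LMS-1 and 21.1 ± 6.52 CPM (SD, n = 2) in SK-UT-1B. Of 14 genes for kinases that act on MAP4, tau, or stathmin and their activators, 1 was higher and 6 were lower. MAPK13 (5.30, from 10 and 0 counts in SK-UT-1B DMSO) was higher. The lower genes included CDK5R1 (-2.48), the activator of CDK5, and CDK1 (-1.07). After the combination 2 were higher and 4 lower. Of the 118 genes tested in these lists, edgeR called 0 in each treatment comparison. In SK-UT-1B after the combination, 25 of them (21.2%, beside 10.5% of all genes) had an unadjusted p under 0.05 and DESeq2 called CCT5, EML4, FIGN, and TPX2 among 594 genes in all. After MK-0752, 10 (8.48%, beside 6.41% of all genes) had an unadjusted p under 0.05 and DESeq2 called KIF18B among 220 genes. After the combination in SK-LMS-1, 7 (5.93%, beside 4.33%) had an unadjusted p under 0.05 and DESeq2 called 0, among 45 genes.

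Several members are known as neuronal genes, so neuronal markers were examined beside them. Of 15 markers tested, SK-LMS-1 had 6 higher and 5 lower after DMSO, and 4 higher and 2 lower after the combination. In SK-UT-1B after the combination 1 was called, where 0.715% of all genes were. This was NCAM1, a neural adhesion molecule, at 3.66 ± 2.36 CPM after DMSO and 0.564 ± 0.246 CPM after the combination (SD, n = 2 each), with a log2FC of -2.64 ± 0.42 (adjusted p = 0.00467 with edgeR). The log2FC of NCAM1 was -3.22 without 3-1, -2.29 without 3-3, -1.80 without the DMSO library 4-1, and -3.20 without the DMSO library 4-2. With only the libraries of that comparison, where 0 genes in all were called, it was -2.68 (adjusted p = 0.643). NEFL measured 42.4 ± 5.995 CPM (SD, n = 4) and SNAP25 13.3 ± 3.02 CPM (SD, n = 4) in SK-LMS-1 with 0 counts in SK-UT-1B DMSO, while INA measured 88.9 ± 9.63 CPM (SD, n = 2) in SK-UT-1B with 0 counts in SK-LMS-1 DMSO. The summed level of the 16 markers was 136 CPM in both SK-UT-1B DMSO libraries and 193 to 241 CPM in those of SK-LMS-1. RBFOX3, ELAVL3, ELAVL4, NEFH, GAP43, and INA were at 0 in all SK-LMS-1 DMSO libraries, and NEFL, NEFM, SNAP25, and ELAVL2 in those of SK-UT-1B. The part of these genes in the differences of MAPT and TUBB4A was not tested.

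Proliferation markers were examined in the same way. Of 18, SK-LMS-1 had 0 higher and 16 lower after DMSO, with a median log2FC of -1.69, and 0 higher and 13 lower after the combination, and their summed level was 4962 to 5455 CPM in SK-UT-1B DMSO and 1662 to 1766 CPM in SK-LMS-1 DMSO. The sum was 2664 to 3851 CPM in the SK-UT-1B combination, 1299 to 1398 CPM in the SK-LMS-1 combination, and 941.5 to 1089 CPM after MK-0752. After the combination in SK-UT-1B, 2 of 18 were called lower and 0 higher, where 0.715% of all genes were called. These were CCNA2 with a log2FC of -1.17 ± 0.25 (adjusted p = 0.0365) and RRM2 with -0.90 ± 0.17 (adjusted p = 0.0139). CCNA2 had -0.80 without 3-1 and -1.73 without 3-3, and RRM2 -0.71 and -1.14. With only the libraries of that comparison, where 0 genes in all were called, their log2FC stayed at -1.17 and -0.90 (adjusted p = 0.586 for both). After MK-0752 in SK-LMS-1, 3 of 18 were called lower and 0 higher, where 0.365% of all genes were called. They were RRM2 (-1.17), CCNB1 (-1.09), and MKI67 (-0.91), although CCNB1 was not called without the MK-0752 library 2-2 (-0.94). The part of proliferation in the levels of STMN1, TUBB, and TUBB6 was not tested.

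Markers of the labelled tumor type were mixed. Of 12 smooth muscle markers tested, SK-LMS-1 had 9 higher and 1 lower after DMSO and 10 higher and 1 lower after the combination, and their summed level was 1247 to 1417 CPM in SK-LMS-1 DMSO against 263 to 265 CPM in SK-UT-1B DMSO. MYLK, myosin light chain kinase, measured 496 ± 33.3 CPM (SD, n = 4) against 2.21 ± 1.58 CPM (SD, n = 2). DES, MYH11, and MYOCD were at 0 in the SK-LMS-1 DMSO libraries, and ACTG2 and MYOCD in those of SK-UT-1B. Of 11 epithelial markers, 8 were tested, and 5 were higher in SK-LMS-1 and 0 lower under either exposure. KRT8 measured 103 ± 5.20 CPM (SD, n = 4) in SK-LMS-1, with 0 counts in both SK-UT-1B DMSO libraries. The epithelial markers CDH1 and ESRP1, however, were at 0 in all SK-LMS-1 DMSO libraries and had some counts in SK-UT-1B DMSO. The 11 markers summed to 0.636 to 1.38 CPM in SK-UT-1B DMSO, with 8 at 0, so hardly any could be called lower in SK-LMS-1.

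Over the 8 SK-LMS-1 libraries, the genes whose log2(CPM + 1) was most like that of TUBB by Pearson's r were PLAA (0.99), GAPDH (0.97), and ELF4 (0.97). They were KLF6 (0.98), NR4A2 (0.98), and SPRY4 (0.97) for TUBB4B, HK2 (0.99), SMOX (0.98), and MFSD10 (0.98) for TUBB6, and APEH (0.98), TNS2 (0.97), and FLNA (0.97) for MAP4. For STMN1 they were UPP1 (0.97), HMGB2 (0.96), and RPLP0P2 (0.95), and for MAPT they were FLG-AS1 (0.97), PIGN (0.95), and POLI (0.95). The median of the best r over 9567 genes was 0.97, so these values are usual among 8 libraries that share treatments. Among the members, TUBB4B and TUBB6 had an r of 0.92 and TUBB and TUBB4B 0.61, while MAPT had -0.73 with TUBB4B and -0.71 with TUBB6. These values describe libraries that share treatment groups and carry no test.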

How the data were processed

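RNA of 12 libraries, 72 h after exposure, was sequenced as single-end reads from ribosome-depleted stranded libraries. Per the labels, the authors trimmed reads with Trim Galore 0.3.7, aligned them to hg38 with STAR 2.7.9a, took out ribosomal RNA with SortMeRNA, and deposited raw read counts for each gene. The annotation, strand setting, and removal of duplicates are not given in the sources used here. The headers of all SK-LMS-1 counts give no line name, while those of SK-UT-1B give theirs. Counts were tested here with edgeR 4.0.16 in R 4.3.3 (TMM, filterByExpr, robust quasi-likelihood over 6 groups of 2, 21114 genes, Benjamini-Hochberg adjustment over all genes, called at an adjusted p under 0.05). Total counts lay between 25250057 and 40709885. On simulated data for the SK-UT-1B combination against DMSO over 20239 genes, this recovered 22.5% of 102 genes changed 2-fold and 86.7% of 98 changed 4-fold. The simulation gave all genes the same dispersion, had no excess of genes at 0, and left genes of the lowest counts unchanged. It also lacked the large gap between 3-1 and 3-3, so these rates need not hold for the real libraries. Positions, lengths, and sequences came from GENCODE v44. Eligible for naming from other lists were the 3 highest and 3 lowest log2FC among differentially expressed genes averaging at least 100 counts in 1 group, besides the 3 genes most like each member of at least 10 CPM. TTC5, RRM2, MKI67, TUBA1C, CCT5, and TPX2 were named after their values were seen. The members and lists were chosen with earlier results of these data known. Alternatives were DESeq2 1.42.0, its size factors, other filters, fewer libraries, a replicate block, and other lengths.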

Additional observations from a re-analysis of the deposited data

How the results depend on the processing

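All 11 alternatives of the comparison of lines after DMSO called TUBB4A, TUBB6, MAP4, STMN1, and MAPT, and all 9 after the combination called TUBB4A, TUBB6, MAP4, and MAPT. In that order, their log2FC after DMSO stayed between -3.77 and -3.01, 0.85 and 1.11, 1.31 and 1.45, -1.03 and -0.65, and 2.02 and 2.81. No called value changed its sign. Of 870 values under alternatives, 23 gained a call, 71 were counted as a change of sign with no call on either side, and the other 776 kept their call. The number of sign changes depends on how values near 0 are treated. TUBB4B in the SK-LMS-1 combination had a log2FC that rounds to 0. It lay between -0.06 and 0.09 over 11 alternatives, of which 10 did not round to 0. With no filter beyond 1 count, 3 members (TUBB, STMN1, and MAPT) were called in the SK-UT-1B combination, among 758 genes in all against 151 as set here. In the difference between lines 1 (TUBB) was called, among 318 genes in all against 49. Leaving out 1 library gave 1 to 2 members called in the SK-UT-1B combination, 0 to 2 in the difference between lines, and 0 to 1 after MK-0752, the last being TUBB3 without the MK-0752 library 2-3 (adjusted p = 0.049), where the library kept has 0 counts. In the difference between lines, TUBB was called without the SK-LMS-1 DMSO library 4-2, the SK-UT-1B DMSO library 4-2, or the combination library 3-3, and STMN1 without 3-3. After the combination, the lines also differed in TUBB2B without the SK-LMS-1 library 4-1, in STMN1 without 3-1, with no filter, or with DESeq2, in TUBB without 3-3 or with no filter, and in TUBB3 with only the libraries of the comparison (adjusted p = 0.0427). A group that loses 1 library holds 1, and its spread is taken from the other groups. The cause was not tested. A replicate block between SK-LMS-1 DMSO set 4 and the combination called 0 members and 2 genes against 5, and the paired differences had a correlation of -0.03 over 9866 genes, so the numbers do not establish pairs.

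Over all genes, the SK-UT-1B combination gave 151 calls, 594 with DESeq2, 758 with no filter, 97 with a mean of at least 50 counts, and 0 with only its own libraries. MK-0752 gave 77, 220, 290, and 53 in the first 4 of these and 201 with only its own libraries, or 126 with all 4 DMSO libraries. The SK-LMS-1 combination gave 5, 45, 83, 1, and 0, the difference between lines 49, 166, 318, 24, and 20, and that between treatments 8, 50, 94, 3, and 50, or 15 with all 4 DMSO libraries. The DMSO sets gave 0, 36, 87, 0, and 0. Leaving out 1 library gave 417 to 1797 calls for the SK-UT-1B combination, 131 to 297 for MK-0752, 62 to 265 for the SK-LMS-1 combination, 282 to 1049 for the difference between lines, 70 to 245 for that between treatments, and 79 to 357 for the DMSO sets. In percentage points of share, SK-LMS-1 minus SK-UT-1B, TUBB3 had -0.0722, or -0.15 by coding length, -0.152 without length, -0.202 by canonical length, and -6.06 by countable windows. Countable windows gave -1.03 for TUBB, beside -4.10, and 0.359 for TUBB2A, -2.08 for TUBB4A, and 7.15 for TUBB6, and canonical length 7.52 for TUBB6, beside 0.138, -2.72, and 5.81. Groups of 2 and the excess of genes at 0 limit what can be seen at low counts.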
